A study of Mus musculus with 16 samples.

Results

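Solute carriers are membrane proteins that move nutrients, ions and metabolites across the plasma membrane and the membranes of organelles. The genes described here are all genes on the arrays whose single platform symbol begins with Slc and a digit or with Slco, apart from Slc3a2, which codes for a partner glycoprotein and not for a carrier. The rule used names only and no measured value, and it took 115 of 7114 named genes, read by 134 probes, among 12761 features in all. Probes of one gene were averaged, which concerned 19 members with 2 probes each.

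Transcripts of WT and M833 mouse cells were measured on 16 two-colour arrays, 8 for each cell type, and every array also carried a common reference RNA. In each cell type 4 arrays carried the cell RNA in Cy5 and 4 in Cy3. By its title the series concerned mutations of Met in MEFs, which commonly means fibroblasts of mouse embryos. The meaning of M833, the allele it stands for, the age of the embryos and the source of the reference are not in the labels. The receptor Met itself is a growth factor receptor, and the question the series title raises is how cells with a changed Met gene differ from WT cells. Whether different arrays held RNA of different cultures is not stated either, so that p-values measure the spread between arrays only, and that spread may be technical.

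Most solute carriers work by facilitated diffusion or by coupling their substrate to an ion gradient. At the plasma membrane that gradient is mainly sodium, which the sodium pump maintains. In lysosomes and other acidic vesicles it is protons, which the vacuolar proton pump supplies, and in mitochondria the SLC25 family exchanges metabolites across the inner membrane. Cultured fibroblasts take up glucose and glutamine through carriers of these families and release lactate through monocarboxylate carriers, which need a partner glycoprotein to reach the surface.

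Values are log2 ratios of cell RNA over reference RNA, a direction that is likely and not stated, and depth in reads does not apply to arrays: their number limits the precision. A ratio to the reference is not a level, so that ratios of different genes are not compared as levels. Sets of 3 values give the lowest, the median and the highest of the 8 arrays of a cell type. Differences are M833 minus WT on the log2 scale with their standard error, from limma with dye orientation as a term. A member is called higher or lower where limma's Benjamini-Hochberg adjusted p over all 12761 features was under 0.05, and only such members are said to have risen or fallen.

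Of 14 fibroblast marker genes 8 were measured, and Vim and Pdgfrb lay above the reference in both cell types, with means of 1.04 and 1.12 in WT, while Dcn and Lum lay at -2.56 and -2.41. Of the fibroblast markers 5 were called lower in M833, 2 of them with the random block described below, and 3 were not called, with a median difference of -0.20. All 8 measured markers of macrophages and other leukocytes, of 19 in the list, fell in M833, also with that block, with a median difference of -0.83, and their mean over the list ranged from -0.46 to -0.31 on the WT arrays and from -1.54 to -1.26 on the M833 arrays. None of the epithelial (8), red cell (4), liver (3), endothelial (3) and neural (3) markers measured was called. Of these 21 genes 6 had an unadjusted p under 0.05 by limma. In bulk RNA, fewer cells of a type and less RNA per cell cannot be told apart. The marker lists were chosen with earlier results of these data known. The part of other cell types in the differences below was not tested.

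In earlier work on these data WT replicates 1, 2, 5 and 6 had deviated together, as had WT replicates 3, 4, 7 and 8, and the same numbers in M833. The labels name no such sets. Over all features, deviations from the mean of dye and cell type correlated at 0.23 to 0.47 between WT arrays of the same set in opposite dyes and at -0.47 to -0.20 between WT arrays of different sets. In M833 the corresponding ranges were 0.03 to 0.24 and -0.20 to 0.03, which nearly met. These correlations come from the same arrays on which the sets were seen, so that they describe the sets and do not test them, and the arrays share a reference, a platform and the features compared. The median gap between the set means was 0.13 in WT and 0.06 in M833 over the members, against 0.13 and 0.05 over all features. Calls below are therefore also given from limma with the 4 sets as a random block, where the estimated correlation was 0.324.

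Of the 115 members 41, or 35.7%, were called between M833 and WT, where 25.9% of all features and 31.9% of named genes were called. More members fell than rose: 31 members (27.0%) fell in M833, against 15.9% of all features and 18.8% of named genes. The 10 members that rose made up 8.7%, against 10% of all features and 13.1% of named genes. Were the ratio reference over cell RNA, every sign here and below would turn, and 31 members would be higher and 10 lower. The median difference was -0.06 over the members and -0.03 over all features, and the median size of a called difference was 0.22 in both. Of the 41 called members 7 changed by 1.25-fold or more. When each array was centred on its own median, 12 members rose and 24 fell (10.4% and 20.9%), against 12.2% and 12.8% of all features, so that the excess of lower calls among all features depended on the centring.

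A random block for the sets left 18 members called, 5 higher and 13 lower, and all 18 were among the 41. This was 15.7% of the members, against 11.5% of all features. In 18 members, or 15.7%, every M833 array lay beyond every WT array in the same direction within each dye orientation, where 10.5% of all features met that rule. The difference had the same sign in all 4 comparisons of a WT set with an M833 set in 59 members (51.3%), against 48.8% of all features, and these included all 41 called members. The calls rest on the same arrays, so that the shared signs do not test them. With each set averaged to 1 replicate, 2 against 2, limma called 0 members, and 20 had an unadjusted p under 0.05, as did 1675 of all features. The interaction of dye orientation with cell type was called in 0 members and 0 of all features by limma, with an unadjusted p under 0.05 in 4 of 115 members and 361 of all features.

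**Figure D1:**
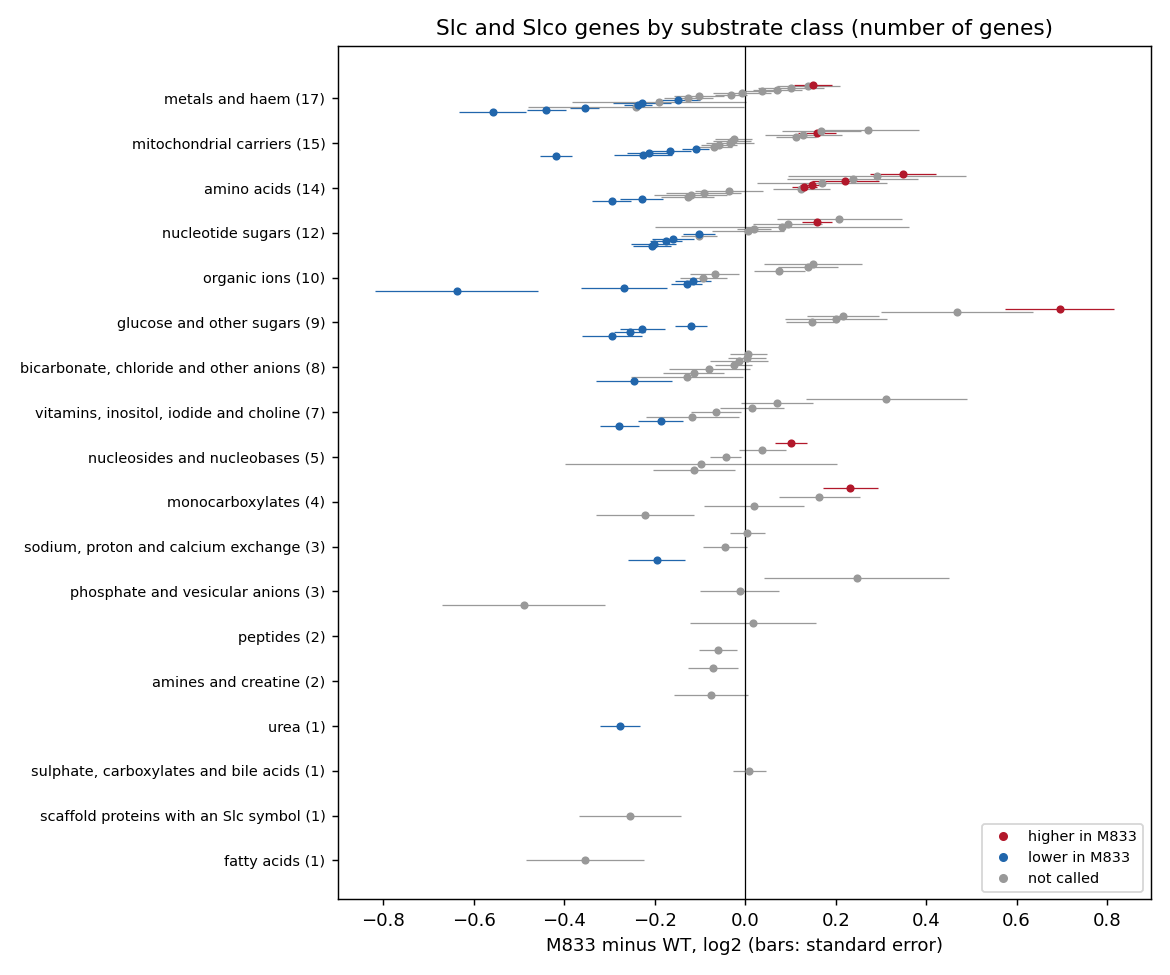
M833 minus WT on the log2 scale for each solute carrier gene (point) with its standard error (bar), grouped by substrate class with the number of genes in brackets and coloured by the call. Slc22a17, at -1.57 and not called, lies outside the axis and is left out. The classes of metals and haem, nucleotide sugars, mitochondrial carriers and organic ions hold more blue than red points, and Slc2a4, at 0.69, is the rightmost point.

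Glucose and other sugars were served by 9 members, classed like all members by family number, and their largest change was a rise of Slc2a4. This gene codes for the insulin-responsive glucose transporter of muscle and fat. Its log2 ratios were -2.36, -1.91 and -1.58 in WT and -1.43, -1.24 and -1.03 in M833. Every M833 array lay above every WT array. The difference was 0.69 ± 0.12, or 1.62-fold higher, with an adjusted p of 0.000537 by limma and 0.00449 with the random block. It was 0.40 (adjusted p of 0.0249 by limma) after scaling the arrays to the same spread, 0.41 when WT replicates 1, 2, 5 and 6 were left out and 0.98 when the other WT set was, and it stayed called in each. Within WT the sets stood apart as well, at a mean of -2.21 in replicates 1, 2, 5 and 6 and -1.63 in replicates 3, 4, 7 and 8, and both lay below the M833 set means of -1.28 and -1.17. Of 11 skeletal muscle marker genes 3 were measured and all 3 were called higher in M833, Mylpf by 1.04, Tnnt1 by 0.61 and Myl4 by 0.17, of which 1 stayed called with the random block. The muscle list was chosen with earlier results of these data known, so that its calls are no independent support. The part of muscle-like gene expression in the Slc2a4 difference was not tested.

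The glucose carriers of most growing cells were not called in the fit reported. Slc2a1, the widespread basal glucose transporter, had ratios of -0.73, -0.33 and -0.11 in WT and -0.30, -0.12 and 0.08 in M833, a difference of 0.22 ± 0.08 with an adjusted p of 0.0571 by limma. Slc2a3, a high-affinity glucose transporter, had ratios of -1.48, -0.95 and -0.48 in WT and -0.71, -0.52 and -0.36 in M833, with a difference of 0.47 ± 0.17 and an adjusted p of 0.0527. The ranges of both genes overlapped. With centred arrays Slc2a1 was called higher (adjusted p of 0.0434 by limma), while Slc2a3 was not called (0.0515). For Slc2a3 the WT sets decided the value: the mean was -1.42 in replicates 1, 2, 5 and 6 and -0.52 in replicates 3, 4, 7 and 8, and the difference was 0.02 without the first set and 0.92 without the second, the latter called with an adjusted p of 1.43e-06 by limma. Slc45a3 and the inositol and glucose carrier Slc5a11 were not called, at 0.15 ± 0.06 and 0.20 ± 0.11.

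The other 4 called sugar carrier genes fell. Slc37a3, of the sugar phosphate exchanger family, fell by 0.26 with ratios of 0.23, 0.27 and 0.44 in WT and -0.05, 0.06 and 0.14 in M833, which did not overlap. Slc50a1, a sugar efflux transporter, differed by -0.29 ± 0.07, and its ranges overlapped. Slc45a4, of a family of proton-coupled sugar carriers, differed by -0.23 ± 0.05 and Slc2a8, a glucose transporter held inside the cell, by -0.12 ± 0.04. Of these, Slc37a3, Slc50a1 and Slc45a4 stayed called with the random block, with adjusted p-values of 0.00709, 0.021 and 0.0374. Slc50a1 lost its call without WT replicates 1, 2, 5 and 6, where the difference was -0.15 with an adjusted p of 0.0547 by limma, and without M833 replicates 1, 2, 5 and 6, where it was -0.21 with an adjusted p of 0.123. The sugar class held 1 higher, 4 lower and 4 uncalled members, against 10% of all features called higher and 15.9% lower. Its median difference was 0.15, against -0.03 over all features. After scaling the arrays to the same spread these medians were -0.01 and -0.04.

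**Figure D2:**
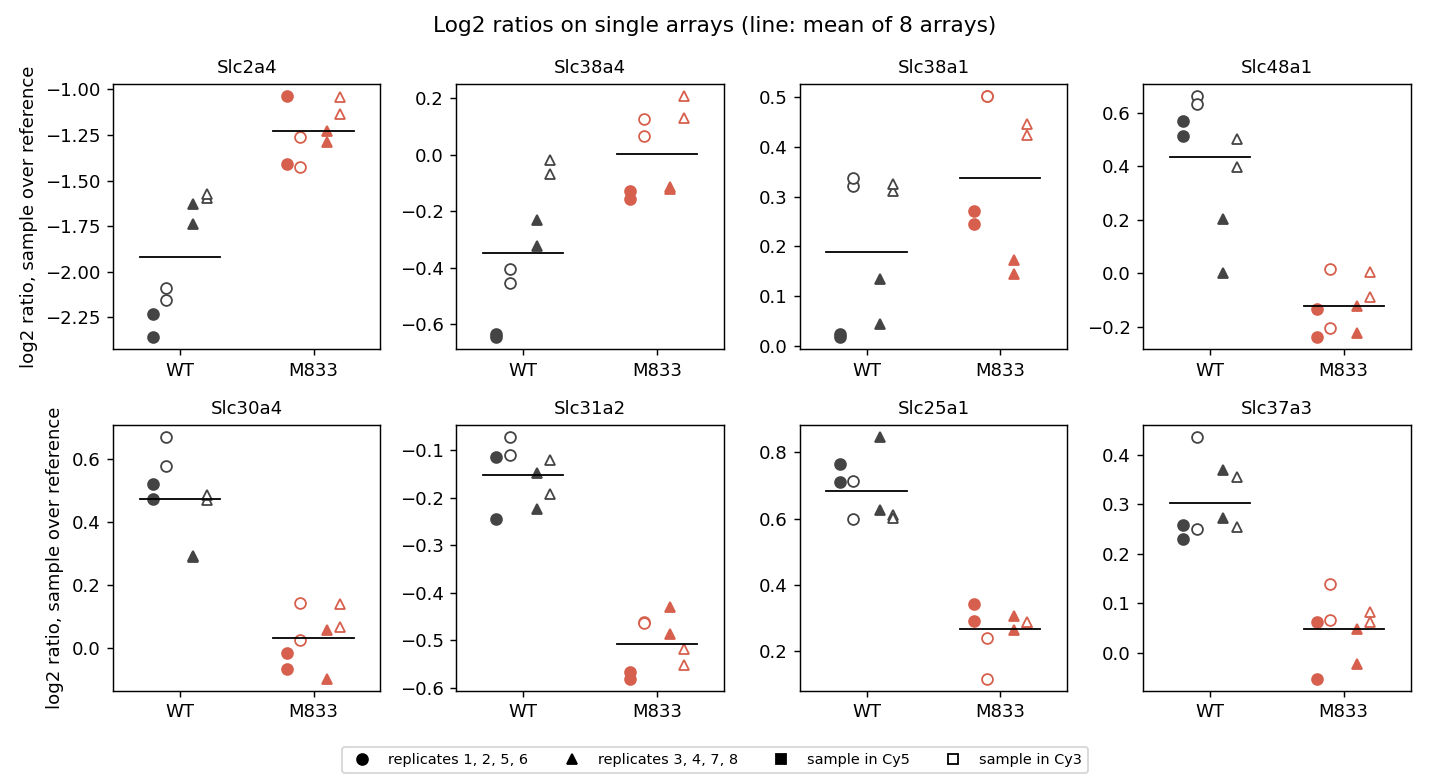
Log2 ratio of cell RNA over reference on each array for 8 solute carrier genes, WT in grey and M833 in red, with circles for replicates 1, 2, 5 and 6, triangles for replicates 3, 4, 7 and 8, filled symbols for the sample in Cy5 and open ones for Cy3. The vertical axes differ between panels and do not start at 0. M833 and WT points do not overlap for Slc2a4, Slc30a4, Slc31a2, Slc25a1 and Slc37a3, and within a dye they do not overlap for Slc38a4, Slc38a1 and Slc48a1.

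Amino acid carriers were represented by 14 members, of which 4 rose, 2 fell and 8 were not called. Among all features 10% were called higher and 15.9% lower. The members that rose were mostly of the SLC38 family, which carries small neutral amino acids such as glutamine and alanine together with sodium. Slc38a4 had ratios of -0.65, -0.36 and -0.02 in WT and -0.16, -0.02 and 0.21 in M833. The ranges overlapped over all arrays, but within each dye every M833 array lay above every WT array. The difference was 0.35 ± 0.07, with an adjusted p of 0.00224 by limma and 0.00895 with the block, and its probes read 0.34 and 0.36. Without M833 replicates 3, 4, 7 and 8 the call of Slc38a4 was lost (adjusted p of 0.0567 by limma), and without WT replicates 1, 2, 5 and 6 the difference was 0.16, which was still called. Slc38a1 rose by 0.15 from ratios of 0.02, 0.22 and 0.34 in WT to 0.14, 0.35 and 0.50 in M833, and Slc38a2 rose by 0.13. Both stayed called with the block, at adjusted p-values of 0.0192 and 0.0491 by limma. Slc38a1 lost its call without M833 replicates 1, 2, 5 and 6 (adjusted p of 0.0564 by limma). Slc38a2 lost its call without M833 replicates 3, 4, 7 and 8 (0.0524). Slc6a6, the taurine transporter, rose by 0.22 but was not called with the block (adjusted p of 0.211). One of its probes was called by itself, at 0.32 (adjusted p of 0.000866 by limma), and the other, at 0.12, was not. The call of Slc6a6 held in 7 of 16 fits that left out 1 array. Without WT replicates 3, 4, 7 and 8 its difference was 0.08 (adjusted p of 0.395 by limma).

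The amino acid class members that fell were Slc38a9 and Slc66a2. Slc38a9, an arginine carrier of the lysosomal membrane that signals amino acid supply to the mTOR kinase, had ratios of 0.16, 0.33 and 0.44 in WT and -0.02, 0.10 and 0.20 in M833 and differed by -0.23 ± 0.05. Slc66a2, a member of the PQ-loop family, had ratios of -0.10, -0.04 and 0.05 in WT and -0.46, -0.34 and -0.15 in M833, and its ranges did not overlap. It differed by -0.30 ± 0.04, with an adjusted p of 0.000117 by limma and 0.00414 with the block. Slc38a9 stayed called with the block (0.0218) and lost its call without M833 replicates 1, 2, 5 and 6 (0.0702).

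The glutamine exchanger gene Slc1a5 was not called. Its ratios were -1.91, -1.36 and -1.04 in WT and -1.47, -1.16 and -0.88 in M833, with a difference of 0.24 ± 0.14, and it differed more within WT, at -1.08 in replicates 1, 2, 5 and 6 and -1.73 in the others, than between the cell types. Without the first of these sets the difference of Slc1a5 was 0.56 and called (adjusted p of 0.00238 by limma), and without the second it was -0.09. The glutamate carrier Slc1a3, the light chains Slc7a6 and Slc7a8, the proline carrier Slc6a20a, the carriers Slc6a13 and Slc38a5 and Slc38a10 were not called either, with differences from -0.13 for Slc7a6 to 0.29 for Slc38a5. After scaling Slc1a3 and Slc7a8 were called lower, at -0.40 and -0.24 (adjusted p of 0.00631 and 0.0138 by limma). The median difference of the class was 0.13 and -0.004 after scaling. Slc3a2, the heavy chain that the SLC7 light chains need at the surface, is outside the count and fell by 0.36 in M833, from a mean of 0.12 to -0.25, with an adjusted p of 0.006 by limma with the block.

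Metals and haem were served by 17 members, of which 1 rose, 6 fell and 10 were not called. Among all features 10% were called higher and 15.9% lower. Slc48a1, which moves haem out of lysosomes, had ratios of 0.00, 0.51 and 0.66 in WT and -0.24, -0.13 and 0.02 in M833. The lowest WT array lay just inside the M833 range, and within each dye the cell types did not overlap. The difference was -0.56 ± 0.07, or 1.47-fold lower, with an adjusted p of 5.8e-05 by limma and 0.00145 with the block. Slc30a4 and Slc31a2 fell as well, the first a zinc carrier of late endosomes and the second a copper carrier of the same compartments. Slc30a4 had ratios of 0.29, 0.48 and 0.67 in WT and -0.10, 0.04 and 0.14 in M833, with a difference of -0.44 ± 0.04 and an adjusted p of 3.83e-06. For Slc31a2 the ratios were -0.25, -0.13 and -0.07 in WT and -0.58, -0.50 and -0.43 in M833, with a difference of -0.35 ± 0.03 and an adjusted p of 1.76e-06. Neither gene's ranges overlapped. Slc49a4, a lysosomal member of a family that includes haem exporters, had ratios of 0.15, 0.24 and 0.26 in WT and -0.09, -0.02 and 0.10 in M833 without overlap and differed by -0.24 ± 0.03.

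These 4 genes stayed called with the block, at adjusted p-values of 0.00145, 0.000159, 0.000404 and 0.00387 by limma, and also in every fit that left out 1 of the 4 sets. The macrophage and leukocyte markers, all 8 called lower, moved in the same direction, and their part in the metal and haem differences was not tested. The zinc carriers Slc30a7 and Slc30a2 differed by -0.23 ± 0.06 and -0.15 ± 0.05 and were not called with the block. Slc39a4, a zinc importer of the plasma membrane, was the one member of the class that rose, by 0.15, and its adjusted p with the block was 0.206. The importers of copper (Slc31a1) and iron (Slc11a2), which stand at the entry of each metal, differed by 0.04 ± 0.04 and 0.07 ± 0.05 and were not called. The other zinc carriers Slc30a3, Slc30a5, Slc30a9, Slc39a8, Slc39a9, Slc39a10 and Slc39a14 were not called, with differences from -0.19 for Slc30a3 to 0.14 for Slc39a8. The median of the class was -0.13, and -0.15 after scaling.

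Slc40a1 codes for ferroportin, the exporter of cellular iron, and its value depended on the WT arrays used. Its ratios were -1.88, -1.22 and -0.35 in WT and -1.56, -1.38 and -1.06 in M833, a difference of -0.24 ± 0.24 that was not called. The WT set means were -0.51 in replicates 1, 2, 5 and 6 and -1.75 in replicates 3, 4, 7 and 8, with the M833 sets between them at -1.37 and -1.36. Without the first WT set the Slc40a1 difference turned to 0.38 (adjusted p of 0.005 by limma) and without the second it was -0.86 (8.6e-05), and both were called.

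Mitochondrial carriers of the SLC25 family numbered 15, of which 1 rose, 5 fell and 9 were not called, with a median difference of -0.03. Among all features 10% were called higher and 15.9% lower. Slc25a1, which exports citrate to the cytosol for fatty acid and sterol synthesis, changed most. Its ratios were 0.60, 0.67 and 0.85 in WT and 0.12, 0.29 and 0.34 in M833. No M833 array reached the WT range. The difference was -0.42 ± 0.04, or 1.34-fold lower, with an adjusted p of 1.12e-06 by limma, 0.000305 with the block, and under 0.05 in every fit that left out 1 of the 4 sets. The remaining SLC25 members that fell did so by smaller amounts and were not called with the block. They were Slc25a17, the peroxisomal member of the family, at -0.23 ± 0.06, Slc25a36, a pyrimidine nucleotide carrier, at -0.21 ± 0.05, Slc25a20, the carnitine and acylcarnitine carrier, at -0.17 ± 0.05, and Slc25a26, the S-adenosylmethionine carrier, at -0.11 ± 0.03. Slc25a10, the dicarboxylate carrier, rose by 0.16, with an adjusted p of 0.0804 with the block.

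The other 9 SLC25 members were not called in the fit reported. The phosphate carrier Slc25a3 differed by -0.06 ± 0.04 and the adenine nucleotide carrier Slc25a5 by 0.11 ± 0.04. One probe of Slc25a5 was called by itself, at 0.17 (adjusted p of 0.00075 by limma), and the other, at 0.05, was not, and with centred arrays the mean of both was called (0.0313). Slc25a13, a carrier of the malate and aspartate shuttle, differed by 0.17 ± 0.09, and Slc25a11, the oxoglutarate carrier, by -0.07 ± 0.04. Slc25a37, which brings iron into mitochondria for haem synthesis, and Slc25a39 lay at similar ratios in both cell types in the fit reported. Their differences were -0.03 ± 0.04 and -0.03 ± 0.04. After scaling Slc25a37, Slc25a39 and Slc25a11 were called lower, at -0.43, -0.23 and -0.14 (adjusted p of 0.00268, 0.00532 and 0.0366 by limma). The pyrimidine nucleotide carrier Slc25a33, the folate or flavin carrier Slc25a32 and Slc25a48 differed by 0.13 ± 0.09, -0.03 ± 0.05 and 0.27 ± 0.11.

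Nucleosides and nucleobases were served by 5 members, of which 1 was called, where 25.9% of all features were. Slc28a3, a sodium-coupled nucleoside carrier, rose by 0.10 and was not called with the block (adjusted p of 0.274 by limma). Slc29a1, the equilibrative nucleoside transporter of most cells, differed by -0.10 ± 0.30, with ratios of -2.56, -1.51 and -0.59 in WT and -1.83, -1.69 and -1.37 in M833. Apart from Slc22a17, described below, no member had a larger gap within WT: the means of Slc29a1 were -0.73 in WT replicates 1, 2, 5 and 6 and -2.35 in replicates 3, 4, 7 and 8, with the M833 sets between, at -1.77 and -1.50. Without the first WT set the Slc29a1 difference turned to 0.71, with an adjusted p of 4.64e-05 by limma, and without the second it was -0.91 (1.2e-05), and both were called. Slc28a2, Slc29a2 and the purine nucleobase carrier Slc43a3 were not called, with differences of -0.11 ± 0.09, 0.04 ± 0.05 and -0.04 ± 0.03. The class median was -0.04.

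**Figure D3:**
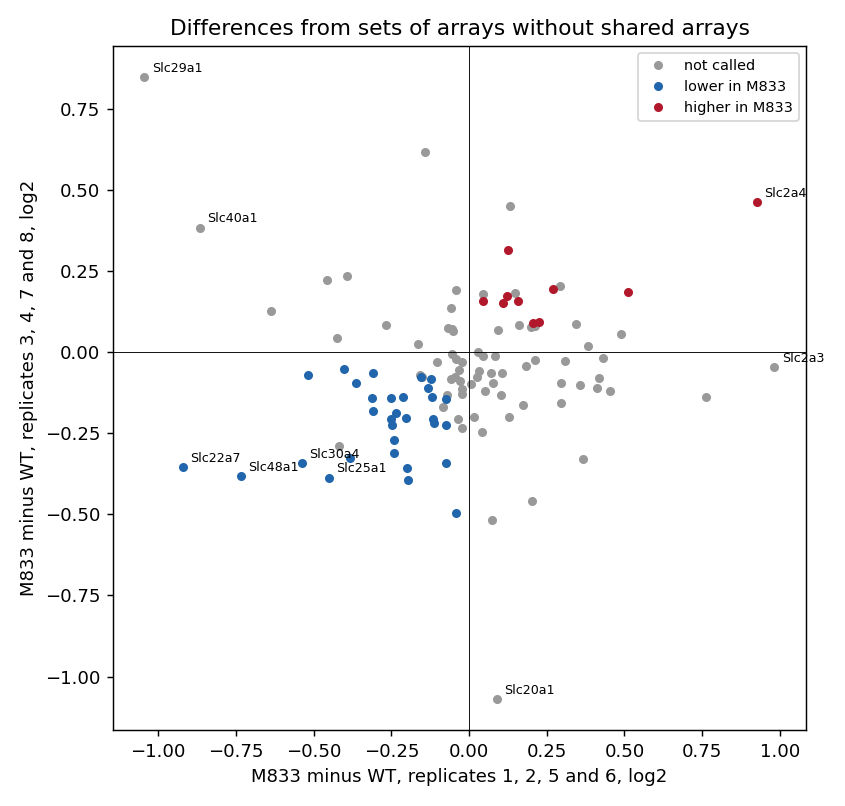
M833 minus WT on the log2 scale from replicates 1, 2, 5 and 6 of each cell type (horizontal) and from replicates 3, 4, 7 and 8 (vertical), one point per solute carrier gene, coloured by the call over all arrays. The axes share no cell array, and Slc22a17 is left out. The called genes lie where both differences are above 0 or both below it. Their calls use the arrays of both axes, so that this does not test them. Slc29a1 and Slc40a1 lie in the upper left and Slc20a1 and Slc2a3 lie near an axis.

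The SLC35 family, which includes sugar nucleotide carriers that feed glycosylation in the Golgi apparatus and endoplasmic reticulum, held 12 members. Of these 1 rose and 5 fell, where 10% of all features were called higher and 15.9% lower. The class was made by family number, so that it can hold carriers of other substrates. Slc35a4 rose by 0.16, from ratios of -0.43, -0.30 and -0.17 in WT to -0.22, -0.14 and -0.01 in M833, with an adjusted p of 0.04 by limma with the block. Slc35f6 fell in both of its probes, by 0.18 and 0.24, and on average differed by -0.21 ± 0.04, with 0.0158 with the block. Slc35a5, Slc35b4 and Slc35b2, the last a carrier of the sulphate donor of glycan sulphation, differed by -0.20 ± 0.05, -0.17 ± 0.04 and -0.16 ± 0.05 and lost the call with the block, as did Slc35e3 at -0.10. The class median was -0.05.

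Organic ion carriers numbered 10, and 4 of them fell, where 15.9% of all features were called lower. Slc22a7, an organic anion transporter, had ratios of 0.07, 0.26 and 1.54 in WT and -0.73, -0.15 and 0.63 in M833, which overlapped, and differed by -0.64 ± 0.18, with an adjusted p of 0.0163 by limma and 0.177 with the block. Slco3a1, which carries prostaglandins and other anions, Slco6c1 and the carnitine carrier Slc22a5 were called lower at -0.27, -0.13 and -0.12, none with the block. The Slco3a1 difference was -0.51 when WT replicates 1, 2, 5 and 6 were left out and -0.03 (adjusted p of 0.661 by limma) when the other WT set was, and its call held in 4 of 16 fits that left out 1 array. Slc22a17 had the largest difference of all members, at -1.57 ± 1.24, without being called. It rested on WT replicate 2 at 11.15, where the other WT arrays of Slc22a17 lay between -0.37 and 1.02, and without that array the difference was -0.24 (adjusted p of 0.313 by limma).

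Of the monocarboxylate carriers, Slc16a1, which moves lactate and pyruvate with protons, was called higher. Its ratios were -2.13, -2.09 and -1.84 in WT and -1.99, -1.77 and -1.56 in M833, a difference of 0.23 ± 0.06. This direction did not hold after scaling the arrays to the same spread, where the difference of Slc16a1 was -0.11 (adjusted p of 0.368 by limma), and the block gave an adjusted p of 0.176. Slc16a3, the lactate exporter of glycolytic cells, differed by 0.16 ± 0.09 and was not called, nor were Slc16a6 and Slc16a13. After scaling Slc16a6 was called lower, at -0.25 (adjusted p of 0.0491 by limma).

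In the smaller classes, Slc46a1, the proton-coupled folate transporter, had ratios of -0.07, 0.27 and 0.37 in WT and -0.23, -0.07 and 0.12 in M833 and differed by -0.28 ± 0.04, with an adjusted p of 0.0115 by limma with the block. Slc14a1, a urea transporter, had ratios of -0.35, -0.07 and 0.08 in WT and -0.62, -0.38 and -0.12 in M833 and differed by -0.28 ± 0.04, with 0.0197 with the block. Both kept their call in every fit that left out 1 of the 4 sets. Slc44a2, of the choline carrier family, the bicarbonate carrier Slc4a8 and the sodium and proton exchanger Slc9b1 were called lower, at -0.19, -0.25 and -0.20, and none with the block. On Cy5 arrays Slc4a8 ran from 0.33 to 0.72 in WT and from -0.0009 to 0.34 in M833. On Cy3 arrays M833, at -0.14 to -0.04, lay inside the WT range of -0.20 to 0.05. The call of Slc4a8 held in 8 of 16 fits that left out 1 array. Slc20a1, a sodium-coupled phosphate importer, had ratios of 0.99, 1.53 and 2.12 in WT and 0.84, 1.03 and 1.31 in M833 and a difference of -0.49 ± 0.18 that was not called (adjusted p of 0.058). Its WT set means were 1.07 and 2.02, and the difference of Slc20a1 was -0.96 without the first set, called with an adjusted p of 1.35e-06 by limma, and -0.02 without the second. Slc27a4, a fatty acid carrier, differed by -0.35 ± 0.13 and was not called (adjusted p of 0.059). The classes of amines and creatine (2 members), peptides (2) and sulphate, carboxylates and bile acids (1) held no called member in the fit reported. Nor did the classes of fatty acids (1) and phosphate and vesicular anions (3), and the scaffold gene Slc9a3r1 was not called. Of these 10 members 3, Slc20a1, Slc27a4 and Slc9a3r1, had an unadjusted p under 0.05 by limma. After scaling Slc27a4 and Slc9a3r1 were called lower, at -0.45 and -0.44 (adjusted p of 0.00835 and 0.0166 by limma).

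The promoters of members were compared because many members shifted by similar small amounts, and the sequences shown are those of 3 members called lower also with the block and of Slc16a1. RefSeq windows of 250 bases before a transcription start on GRCm38.p6 were found for 85 members, 111 windows in all. The motif searched was CACGTG, the E-box read by MYC, USF and TFEB family factors, which is its own reverse complement and so the same on both strands. It occurred in 6.02% of 32851 windows in the table, in 9.04% of 7353 windows of named genes on the arrays and in 15 of 111 windows of members (13.5%). Counted over the members with a window, 1 of 5 that rose, 6 of 24 that fell and 8 of 56 that were not called had a window with it. A match is a description of these letters and not a binding site. Capitals mark the motif in the windows below, which are written from 5′ to 3′ on the strand of the gene. Slc37a3 had 2 windows, of which 1 is shown. The annotated gene reaches to chr6:39377725, so that the Slc37a3 motif shown lies inside it, before a start that is not the outermost one.
Slc25a1, citrate carrier, chr16:17928220-17928469, minus strand, motif starting 239 bases before the transcription start: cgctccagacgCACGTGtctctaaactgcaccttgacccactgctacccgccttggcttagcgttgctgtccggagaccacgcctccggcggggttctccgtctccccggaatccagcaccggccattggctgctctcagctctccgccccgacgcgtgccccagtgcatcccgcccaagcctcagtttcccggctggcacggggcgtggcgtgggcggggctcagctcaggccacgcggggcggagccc
Slc37a3, sugar phosphate exchanger family, chr6:39377708-39377957, minus strand, motif starting 13 bases before the start: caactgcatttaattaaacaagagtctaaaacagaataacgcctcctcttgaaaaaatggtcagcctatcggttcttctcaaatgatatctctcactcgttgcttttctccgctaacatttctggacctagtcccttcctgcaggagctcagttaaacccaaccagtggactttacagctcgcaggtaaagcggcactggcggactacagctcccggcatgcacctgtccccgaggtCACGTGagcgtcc
Slc49a4, lysosomal SLC49 member, chr16:35769371-35769620, minus strand, motif starting 207 bases before the start: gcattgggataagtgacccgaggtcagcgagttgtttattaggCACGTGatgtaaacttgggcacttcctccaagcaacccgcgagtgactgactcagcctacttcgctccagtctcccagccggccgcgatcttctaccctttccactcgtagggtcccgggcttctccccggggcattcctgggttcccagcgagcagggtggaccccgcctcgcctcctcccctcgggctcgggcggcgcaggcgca
Slc16a1, lactate and pyruvate carrier, chr3:104638414-104638663, plus strand, motif starting 200 bases before the start: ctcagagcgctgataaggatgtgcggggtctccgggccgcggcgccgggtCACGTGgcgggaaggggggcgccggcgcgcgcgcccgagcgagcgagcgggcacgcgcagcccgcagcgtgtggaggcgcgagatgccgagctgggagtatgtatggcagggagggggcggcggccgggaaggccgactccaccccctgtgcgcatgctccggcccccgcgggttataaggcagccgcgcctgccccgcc

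Against the reference RNA, 19 members (16.5%) lay at least 2-fold below it in both cell types, where 4.85% of all features and 6.34% of named genes did. Only 2 members, Slc20a1 and Slc4a2, an anion exchanger, lay at least 2-fold above it in both (1.74%), against 1.33% of all features and 1.71% of named genes. Both counts rest on the inferred direction of the ratio: turned, 19 members would lie above the reference and 2 below, and the genes listed next as lowest would be highest. The 5 lowest by the mean of both cell types were Slc12a4, a potassium and chloride carrier, with means of -2.88 in WT and -3.01 in M833, Slc25a37 at -2.18 and -2.21, Slc4a1, the anion exchanger of red cells, at -2.17 and -2.18, the phosphate carrier Slc34a2 at -2.16 and -1.92, and Slc16a1 at -2.04 and -1.81. Of these only Slc16a1 was called between the cell types in the fit reported. After scaling, Slc16a1 and Slc34a2 were not called. Slc12a4, Slc25a37 and Slc4a1 were then called lower, at -0.67, -0.43 and -0.41 (adjusted p of 0.00128, 0.00268 and 0.00255 by limma). By class the 19 comprised 4 amino acid carriers (Slc1a3, Slc1a5, Slc7a8 and Slc38a5), 3 anion carriers, 2 each of the metal and haem, mitochondrial, monocarboxylate and vitamin classes, and 1 each of the sugar, nucleoside, organic ion and phosphate classes. The red cell markers measured, among them Hbb-b1 at -6.90 in WT and -7.05 in M833, also lay far below the reference, as did the liver marker Alb at -6.33 in WT and -6.33 in M833. What the reference RNA was made of is not given in the labels.

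**Figure D4:**
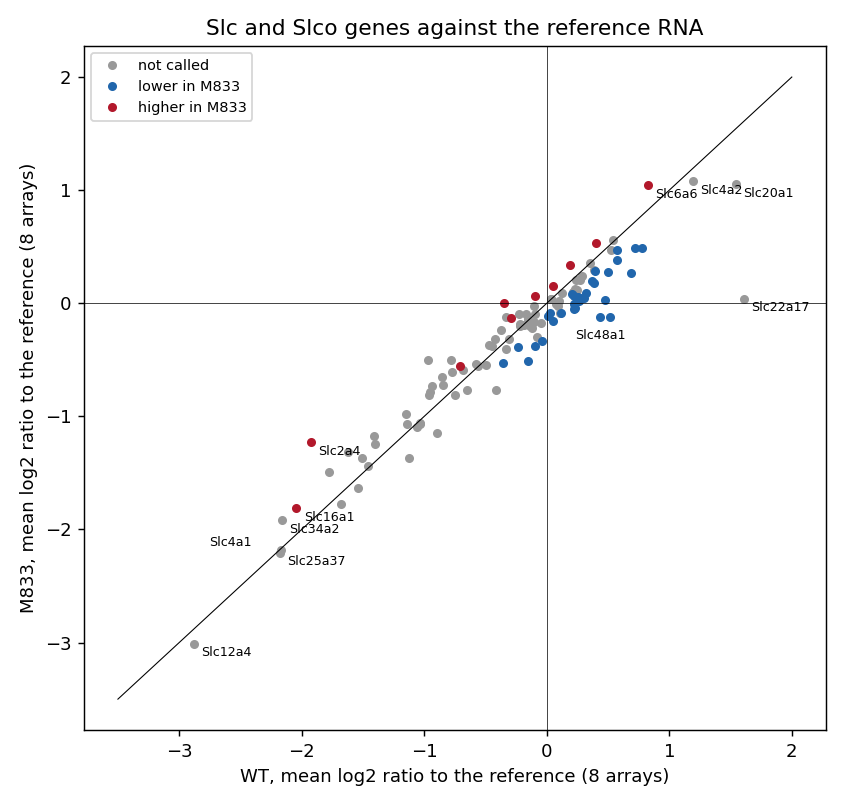
Mean log2 ratio to the reference over 8 arrays in WT (horizontal) and M833 (vertical), one point per solute carrier gene, with the line of equal ratios. The genes reach further below the reference, to about Slc12a4 at -2.88 and -3.01, than above it, and Slc22a17 stands to the right of the line because of WT replicate 2.

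Genes that work together with solute carriers were read from lists of partners, beside 10% of all features called higher and 15.9% called lower. Of 5 partner glycoproteins 4 were measured, and 3 of them, Bsg, Nptn and Slc3a2, fell, all also with the block, with a median of -0.29. Bsg, the chaperone of the lactate carriers Slc16a1 and Slc16a3, had ratios of -0.16, 0.06 and 0.15 in WT and -0.56, -0.46 and -0.35 in M833, which did not overlap. It differed by -0.49 ± 0.04, with an adjusted p of 2.95e-05 by limma with the block, and Nptn, a related glycoprotein, differed by -0.21 ± 0.04. Emb, the partner of some monocarboxylate carriers, was not called, at -0.01 ± 0.07. Of 26 vacuolar proton pump subunits 14 were measured, of which 1 rose (Atp6v1c1, by 0.15), 3 fell and 10 were not called, with a median of -0.13. Atp6v1g1 and Atp6v0e differed by -0.32 ± 0.09 and -0.24 ± 0.06, and 1 subunit, Atp6v0e, stayed called with the block.

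Of 14 sodium pump subunits and regulators 5 were measured, and 2 rose, Fxyd6 by 0.86 and Atp1b2 by 0.58, neither with the block. ABC transporters, which use ATP directly, were measured for 16 of 49 genes, of which 3 rose, 4 fell and 9 were not called, with a median of -0.03. Abca3, a lipid transporter, differed by -0.56 ± 0.06 and Tap2, the peptide transporter of antigen presentation, by -0.36 ± 0.07, both also called with the block, while Abcb6 rose by 0.35 and Abce1 by 0.16 without it.

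Members read by 2 probes gave the same sign in 15 of 19 genes and opposite signs in 4, Slc12a2, Slc12a7, Slc15a2 and Slc6a8. In the creatine carrier Slc6a8 one probe differed by -0.18 and was called (adjusted p of 0.000299 by limma) and the other by 0.03, and the mean of both was not called. The probes of the other genes with opposite signs were not called, with differences from -0.07 to 0.05.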

How the data were processed

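Expression was measured on 16 two-colour arrays, 8 of WT and 8 of M833, against a common reference, from Trizol RNA labelled during reverse transcription, per the labels' protocols. The deposited values are log2 ratios that the authors had normalised, and limma is named in the submitters' processing notes, with no version. Log base and direction, sample over reference, were inferred from the values and titles and are not stated. How background was corrected and arrays were normalised or centred is not given in the sources used here. Array medians lay between -0.02 and 0.07. The correlation between pairs of arrays ranged from 0.591 to 0.973, and WT replicate 2 held 49 values above 8. Channel intensities were not used here, so dim probes could not be filtered.

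Of 15247 probes 9600 had 1 gene symbol in the platform annotation, 214 several and 5433 none, and 9492 of the first matched a RefSeq gene table through their Entrez number, with 0 symbols changed. Left out were 4 probes with several symbols, one of them an Slc symbol. Probes of a gene were averaged.

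Features were fitted with limma 3.58.1 in R 4.3.3 (lmFit, eBayes) with terms for cell type and for the dye of the sample, and Benjamini-Hochberg adjusted p-values were taken over all 12761 features. The script was tested on simulated data. Replicate numbers follow accession order and only name arrays.

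The members, the classes, the lists of partners and markers and the sets of arrays were chosen with earlier results of these data known. Members were named by rule: the 10 largest called increases and decreases, up to 6 called members a direction and every uncalled member in the amino acid, sugar, nucleoside, metal and mitochondrial classes, up to 3 called a direction in others, the 5 highest and 5 lowest against the reference, members whose probes differ in sign, and up to 2 called genes a direction of each partner list, with Slc3a2. Slc16a3, Slc16a6, Slc16a13, Slc22a5, Slc27a4, Slc35b2, Slc35e3, Slc9a3r1, the members added for an outlying array, Emb and the marker genes were named outside it after their values were seen.

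Alternatives were centring, scaling, no dye term, each dye alone, single probes, array weights, robust moderation, the sets as a random block or as replicates, leaving out sets, M833 replicates 6, 7 and 8 or each array, and, added after seeing the data, setting values above 8 missing.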

Additional observations from a re-analysis of the deposited data

Results flagged for a closer look

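All 115 members were tested in both cell types. Dixon's test at its 95% level marks about 1 in 20 groups by chance where the 8 values are draws from 1 normal distribution. The values here were not adjusted for dye or set, so that this rate need not hold. In 14 of 230 groups of 8 arrays 1 array stood apart from the other 7 by a gap that the test marked. On WT replicate 2 these were Slc22a17 at 11.15, with the other arrays from -0.37 to 1.02, Slc30a3 at 1.49, with the others from -0.66 to 0.22, Slc2a1 at -0.73, with the others from -0.39 to -0.11, Slc35a1 at -1.84, with the others from -0.40 to 0.80, and Slc6a8 at 0.51, with the others from 0.16 to 0.32. On WT replicate 1 the ratio of Slc35b2 was -0.089, below the others at 0.20 to 0.36. On WT replicate 5 the ratio of Slc34a2 was -1.07, and the others lay from -2.69 to -2.03. On M833 replicate 5 the ratio of Slc12a4 was -2.41, above the others at -3.25 to -2.88, that of Slc35e2 was -0.10, above the others at -0.78 to -0.58, and that of Slc25a1 was 0.12, below the others at 0.24 to 0.34. On M833 replicate 7 the ratio of Slc38a5 was -0.47, with the others from -1.92 to -1.29, and that of Slc17a9 was 0.15, with the others from -0.48 to -0.22. On M833 replicate 8 the ratio of Slco1b2 was -1.75, below the others at -1.32 to -1.03, and on M833 replicate 3 that of Slco2b1 was -1.12, below the others at -0.87 to -0.69. Of these genes Slc25a1 and Slc35b2 were called between the cell types, both lower in M833.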

How the results depend on the processing

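Of the counts of members, 10 rose and 31 fell in the fit reported. Without a dye term they were 6 and 20, with Cy5 arrays alone 1 and 8, with Cy3 arrays alone 1 and 13, 5 and 13 with a random block for the sets, and 0 and 0 with each set as 1 replicate. Without WT replicates 1, 2, 5 and 6 they were 14 and 35, and without WT replicates 3, 4, 7 and 8 17 and 32. Without M833 replicates 1, 2, 5 and 6 the counts were 4 and 14, and 14 fell without M833 replicates 3, 4, 7 and 8 and 17 without M833 replicates 6, 7 and 8. Leaving out each array gave 8 to 11 higher and 25 to 32 lower, and 33 of the 41 called members were called in all 16 of these fits. Without either WT set 23 stayed called, and 11 without any one of the 4 sets. The count of members above the reference was 2, and 1 with Cy5 arrays alone, with single probes and without M833 replicates 1, 2, 5 and 6. With scaled arrays 8 members rose and 38 fell. Shares of all features called are given above only for the fit reported, with centring and with the random block. For the other settings, whether the counts of members followed those of all features was not tested. Scaling ended the calls of Slc16a1, Slc25a17, Slc25a26, Slc30a7, Slc35e3, Slc39a4 and Slc44a2. It gave a lower call to members not called in the fit reported. These were Slc1a3, Slc7a8, Slc12a4, Slc12a7, Slc4a1, Slc25a11, Slc25a37, Slc25a39, Slc27a4, Slc16a6, Slco2b1 and Slc9a3r1. Centring ended those of Slc2a8, Slc22a5, Slc25a26, Slc30a2, Slc35b2, Slc35e3 and Slco3a1. Of 86 genes with values under each alternative 34 turned sign under at least 1, and 31 of these were called neither in the fit reported nor where they turned, such as Slc1a5. For the other 3 the sign turned, for Slc16a1 at -0.11 after scaling, and for Slc29a1 at 0.71 and Slc40a1 at 0.38 without WT replicates 1, 2, 5 and 6. Slc16a6, not counted among these 3, also turned, from 0.02 to -0.25 after scaling, where it was called (adjusted p of 0.0491 by limma). The cause of these changes was not tested. No paired analysis was possible because the labels give no replicate numbers.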
